A study of Mus musculus with 4 samples.

Results

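Solute carriers are membrane proteins that move sugars, amino acids, ions, nucleosides, vitamins and metabolites across the plasma membrane and the membranes of organelles. Their genes were followed in the endothelium of the heart (the inner cell layer of its vessels) in mice given lipopolysaccharide (LPS) by intraperitoneal injection. Members were all genes whose symbol in the array's annotation begins with Slc and a number or with Slco, and 200 of the 11138 genes measured met that rule. By family number, 7 were glucose and hexose carriers (Slc2), 33 amino acid and related carriers (Slc1, Slc3, Slc6, Slc7 and Slc38), 25 mitochondrial carriers (Slc25) and 130 other carriers. The remaining 5 carry the prefix but are not transporters. They are the scaffold proteins Slc9a3r1 and Slc9a3r2, the adaptor Slc4a1ap, the pseudogene Slc39a1-ps and the antisense transcript Slc6a19os.

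Amplified RNA of LPS-injected mice was hybridised against that of saline-injected mice on long-oligonucleotide arrays with 2 colours, with hearts taken at 4 h or at 24 h. Each time had 2 arrays, array 1 with LPS RNA in Cy5 and saline RNA in Cy3 and array 2 with the dyes reversed. Nothing in the labels says that the reversed arrays used other animals or other RNA, and each time therefore counts as 1 replicate. The sources used here give no strain, sex, age or LPS dose, and no way in which the endothelium was isolated. Values are log2 LPS over saline after the sign of array 2 was turned. Means are followed by ± the SD (n = 2 arrays). This SD reflects the arrays and dyes, and the animals' own spread is not in it.

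In endothelium, carriers supply the cell and also pass nutrients, hormones and drugs between blood and tissue. Glucose enters mainly through the facilitative transporter Slc2a1. Amino acid exchangers of the Slc7 family work as dimers with the heavy chain Slc3a2, and Slc25 proteins exchange nucleotides, phosphate and metabolites across the inner mitochondrial membrane. Zinc and iron carriers of the Slc30, Slc39, Slc11 and Slc40 families take part in the withdrawal of metals from blood during infection.

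The precision of these arrays was low. An oligonucleotide was spotted 2 times per array, and the spots of 13.1% to 29.9% of the members' 221 oligonucleotides differed by over 1 log2 unit, depending on the array. Over the members, the turned values of the array pair correlated at 0.12 at 4 h and 0.10 at 24 h (Pearson's r, n = 200 genes, which share arrays and dyes). The deposited ratios of the pair correlated at -0.056 and -0.064 over all 32448 spots. Over oligonucleotides whose spots lay within 0.5 log2 units on both arrays, these correlations were -0.37 (n = 5023) and -0.50 (n = 3668). On that basis, and on the dyes in the labels, array 2 was turned. The sign of these correlations does not show which dye was the numerator. The ratio was taken as Cy5 over Cy3, which makes LPS over saline the assumed direction. If the table held the inverse ratio, every higher value below would be lower. If array 2 had already been turned by the depositors, 1 member at 4 h and 6 at 24 h would have been called in place of those below. The files hold no intensities, so members with weak and strong signal could not be told apart, and a ratio does not show whether a gene was expressed. In such bulk RNA, fewer cells of a type and less RNA per cell cannot be told apart.

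**Figure D1:**
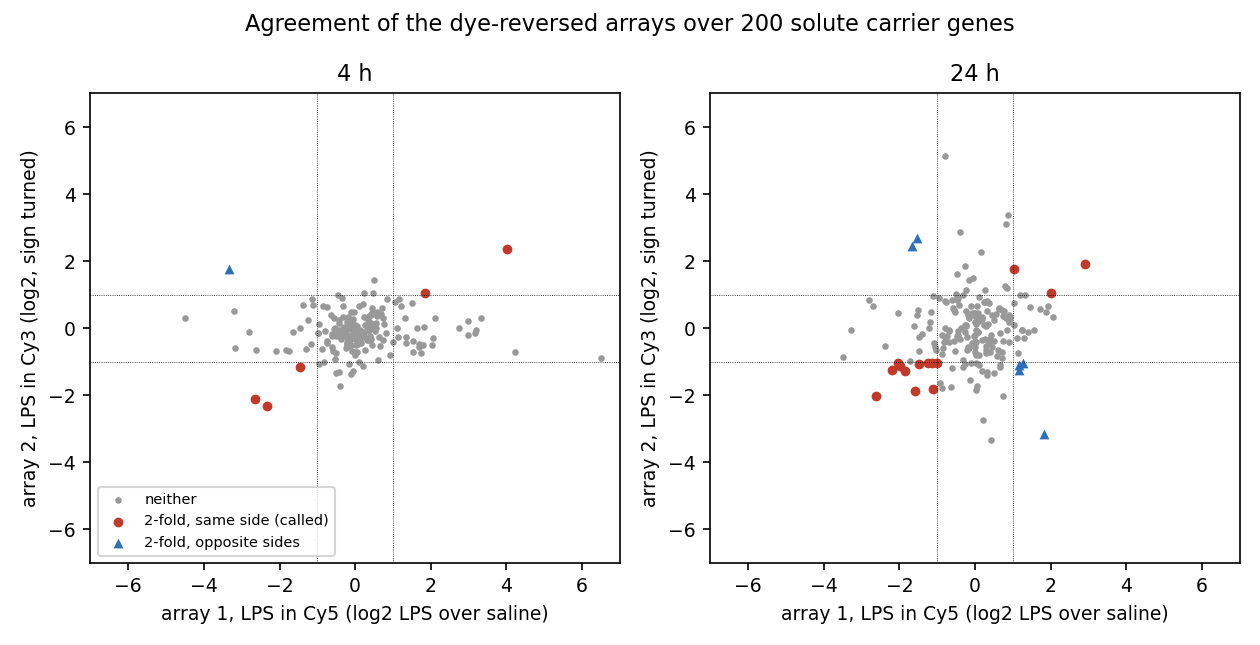
Each point is 1 of 200 solute carrier genes, with log2 LPS over saline on array 1 (LPS RNA in Cy5) on the horizontal axis and on array 2 (LPS RNA in Cy3, sign turned) on the vertical axis, at 4 h and at 24 h. Red points are at least 2-fold from 0 on the same side of both arrays (5 at 4 h, 14 at 24 h), and blue triangles are at least 2-fold on opposite sides (1 at 4 h, 6 at 24 h); most genes form a cloud around 0 in which the arrays differ.

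A member was called higher where the pair of arrays of a time both reached 1 log2 unit (2-fold) above 0, and lower where both reached it below 0. At 4 h, 5 of the 200 members (2.5%) were called, 2 higher and 3 lower. The background at 4 h, over all 11138 genes, was 3.25%, with 2.25% higher and 0.997% lower. At 24 h, 14 members (7.0%) were called, 3 higher and 11 lower, against 7.0% of all genes, 3.48% higher and 3.52% lower. The number of carriers called was thus near the background at both times. The split of the 24 h calls, 1.5% of members higher and 5.5% lower, was not tested. Over both times 18 members (9.0%) were called at least once, against 9.57% of all genes. As a measure of array error, 1 member at 4 h and 6 at 24 h were 2-fold on both arrays in opposite directions, against 1.42% and 3.69% of all genes. With the arrays taken as separate samples in limma, 0 members had a Benjamini-Hochberg adjusted p under 0.05 at 4 h or 24 h. An unadjusted p under 0.05 in limma was found for 7 and 21 of the 200 members, beside 475 and 1126 of all 11138 genes. The lowest adjusted p of a member in limma was 0.626 at 4 h, for Slc15a3, and 0.391 at 24 h, for Slc16a10.

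The mean of the arrays lay within 0.5 log2 units of 0 for 131 members (65.5%) at 4 h and for 102 (51.0%) at 24 h. A mean near 0 can also come from arrays on opposite sides of 0. The lower and upper quartiles of these means at 4 h were -0.35 and 0.29 over members and -0.30 and 0.30 over all genes. At 24 h they were -0.53 and 0.40 over members and -0.50 and 0.46 over all genes. The median of the members was -0.032 at 4 h and -0.035 at 24 h, beside -0.016 and -0.021 over all genes. In the glucose group the median was 0.029 at 4 h and -0.35 at 24 h, in the amino acid group -0.058 and -0.34, in the mitochondrial group 0.017 and -0.040, and among other carriers -0.049 and -0.020. The low medians of the glucose and amino acid groups at 24 h differed between arrays, at -0.26 and -0.41 for glucose and at -0.039 and -0.22 for amino acid carriers. Both array medians of the amino acid group thus lay nearer to 0 than the median of its means.

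**Figure D2:**
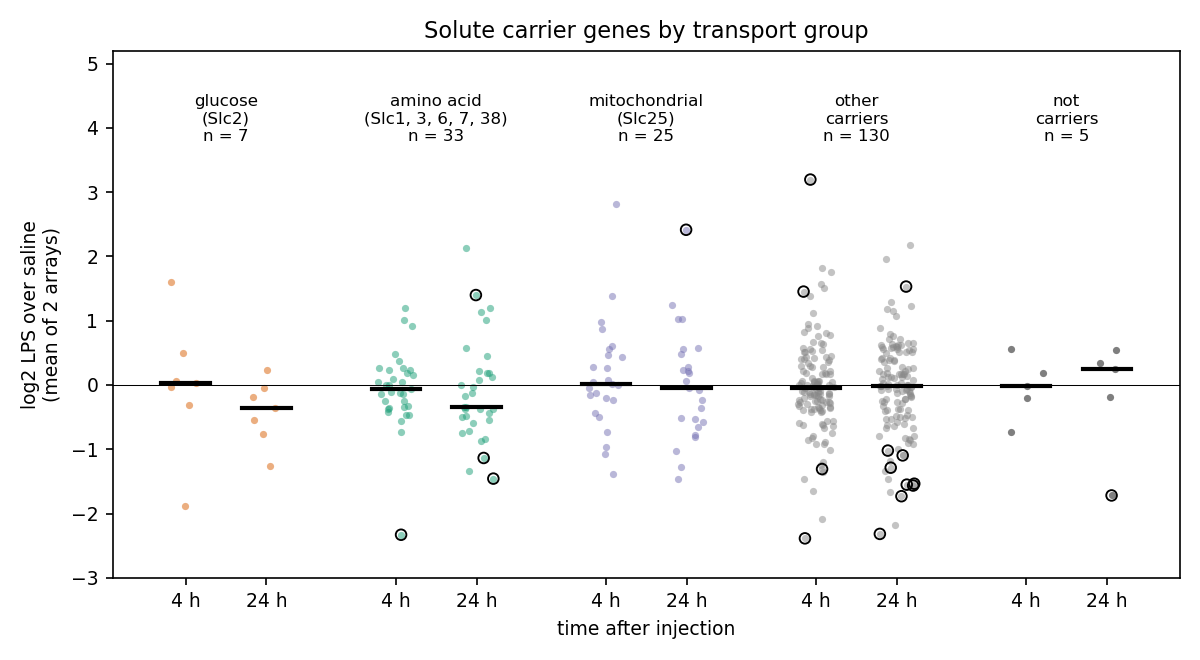
Points are solute carrier genes, placed by the mean of 2 arrays of log2 LPS over saline (vertical axis) at 4 h and 24 h in each transport group; horizontal bars are group medians and circled points are called genes. The medians stay between -0.35 and 0.25, and the called genes lie away from 0, though not all outlying genes are called.

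The calls differed in how well the spots of a gene agreed. At 4 h, Slc1a4 and Slco1c1 were 2-fold in every spot, where 1.57% of all genes met that condition. At 24 h, the condition held for Slc25a4 and Slc39a7, both higher, and for Slc22a17 and Slc46a1, both lower, against 3.65% of all genes. For the other called members, the spots behind the call are given below.

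**Figure D3:**
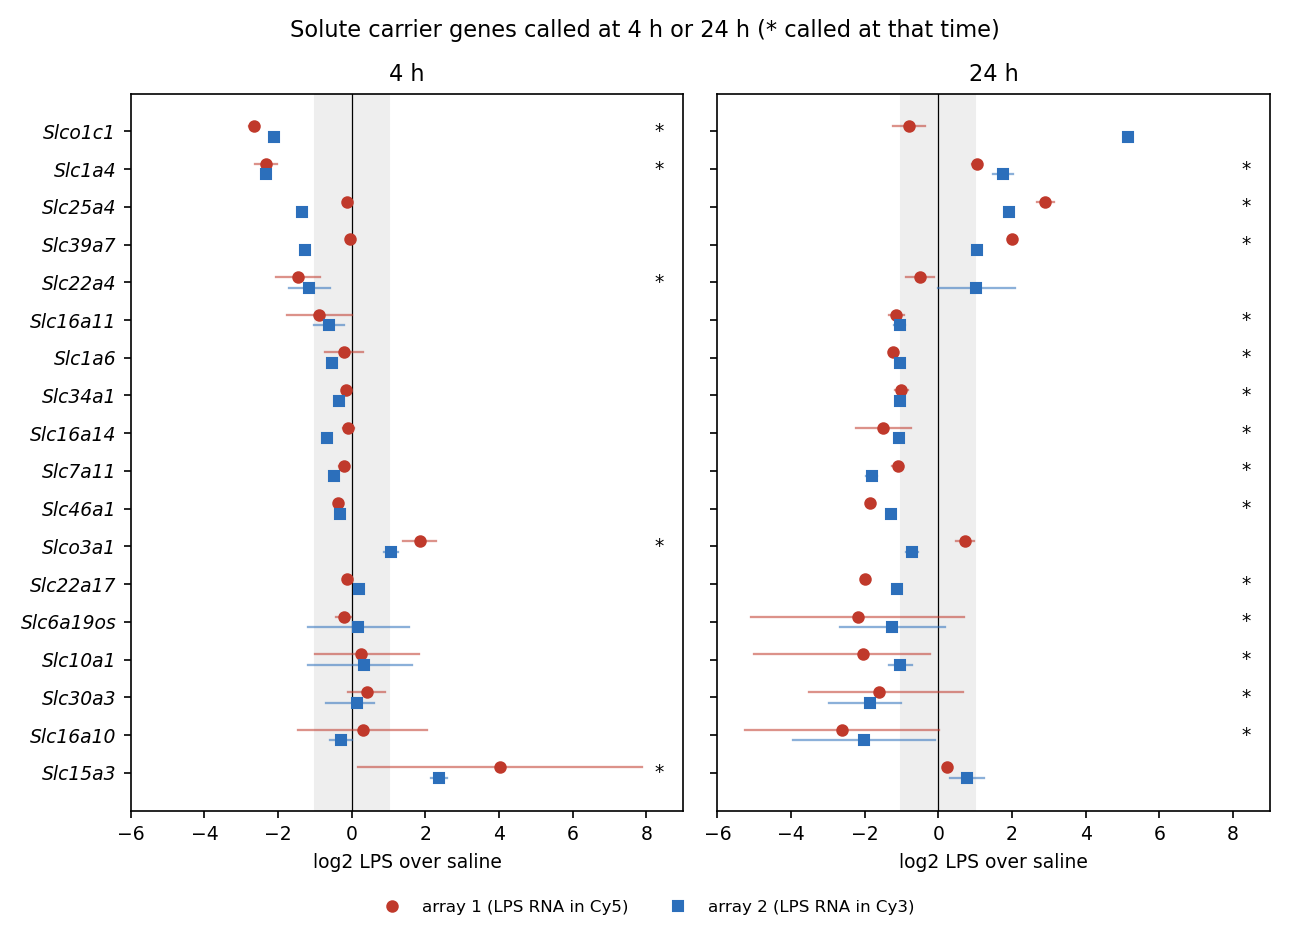
Rows are the 18 solute carrier genes called at 4 h or 24 h, with log2 LPS over saline on the horizontal axis; circles (array 1) and squares (array 2) are gene values, lines span the lowest to the highest spot of the gene on that array, the grey band marks values under 2-fold and an asterisk marks a call at that time. Slc1a4 lies left of the band at 4 h and right of it at 24 h, while the spots of Slc15a3, Slc16a10, Slc6a19os, Slc10a1 and Slc30a3 spread over several log2 units on array 1.

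Among the 33 amino acid carriers, 1 was lower and 0 were higher at 4 h, and 1 was higher and 2 were lower at 24 h. These calls made up 3.03% and 9.09% of the group, against 3.25% and 7.0% of all genes. Slc1a4 (ASCT1), a sodium-dependent exchanger of neutral amino acids such as alanine, serine and cysteine, was the 1 member called at both times, and in opposite directions. At 4 h it stood at -2.34 on array 1 and -2.32 on array 2, a mean of -2.33 ± 0.02, or 5.03-fold lower. At 24 h it stood at 1.04 and 1.76, a mean of 1.40 ± 0.51. All 4 of its spots at 4 h lay between -2.64 and -2.04, and at 24 h they ran from 0.92 to 2.04, so that 1 spot fell just short of 2-fold. Its 24 h call was lost after quantile or scale normalization, whereas the 4 h call was kept. A call at both times was made for 0.5% of members and 0.682% of all genes. Of all genes, 0.135% were called lower at 4 h and higher at 24 h. The related exchanger Slc1a5 (ASCT2), a main route of glutamine uptake, was called at neither time. Its arrays stood at -0.35 and 0.89 at 4 h and at -1.17 and 0.48 at 24 h, on opposite sides of 0.

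Slc7a11 (xCT), which takes up cystine in exchange for glutamate and so feeds glutathione synthesis, was lower at 24 h. Its arrays stood at -0.21 and -0.48 at 4 h and at -1.10 and -1.81 at 24 h, a 24 h mean of -1.46 ± 0.50, or 2.74-fold lower. The 24 h spots ran from -1.95 to -0.95, and the call was lost after quantile or scale normalization. Its heavy chain Slc3a2 (CD98) went the other way at 24 h, at 1.31 and 0.98, and missed the threshold on array 2 only. At 4 h Slc3a2 stood at 0.37 and 0.36. The other light chains that pair with Slc3a2 were not called, among them Slc7a5 (LAT1), a carrier of large neutral amino acids, at -0.32 and -1.16 at 24 h. Slc7a8 (LAT2) had the highest mean of the group at both times, 1.20 ± 1.29 and 2.13 ± 1.78. Its arrays were far apart, at 2.11 and 0.29 at 4 h and at 0.88 and 3.39 at 24 h.

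In mice, Slc7a11 is a known target of the transcription factor ATF4, which acts through amino acid response elements upstream of the gene. The 250 bases before the RefSeq start of the 2 called amino acid exchangers are shown for that reason, in GRCm38.p6 and on the strand of the gene. Slc7a11 lies at chr3:50443614-50443863 and Slc1a4 at chr11:20332714-20332963, both on the minus strand. Capitals mark matches to TGATGNAA on either strand.
Slc7a11: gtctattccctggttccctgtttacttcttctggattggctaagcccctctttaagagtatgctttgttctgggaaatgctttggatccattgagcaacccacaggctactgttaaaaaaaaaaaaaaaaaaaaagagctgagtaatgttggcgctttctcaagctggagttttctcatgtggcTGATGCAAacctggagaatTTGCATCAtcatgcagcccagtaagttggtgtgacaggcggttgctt
Slc1a4: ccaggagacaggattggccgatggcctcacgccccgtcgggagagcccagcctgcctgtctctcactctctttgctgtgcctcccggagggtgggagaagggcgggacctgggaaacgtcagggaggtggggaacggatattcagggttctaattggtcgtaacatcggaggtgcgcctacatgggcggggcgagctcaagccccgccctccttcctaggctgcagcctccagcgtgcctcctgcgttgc
The Slc7a11 window held 2 matches, on opposite strands, from 66 to 59 and from 47 to 40 bases before the start, and the Slc1a4 window held none of these letters. A match was present in 3.45% of all 32851 windows and in 2.39% of the 209 windows found for 159 members. Of the 16 called members with a window, only Slc7a11 held it. Of 3 further motifs, the interferon response motif (GAAA, any 2 bases, GAAA) was in 0 of these 16. The NF-kB consensus was in 1 and ACGTG (hypoxia response core) in 4. In this order, the motifs were in 2.98%, 7.25% and 16.6% of all windows. They were in 3, 18 and 46 of the 209 member windows, so ACGTG was more frequent in member windows than in all windows. A called member was counted where any of its windows held the motif, so its counts are not shares of windows. Differences were not tested. Both strands were searched, and in the called members no match of a motif overlapped that of another. In a list of 19 genes of the amino acid response, of which 15 were measured, Cebpb was the 1 called gene at 4 h, at 2.14 and 1.12, and no gene was called at 24 h.

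The third called amino acid carrier, Slc1a6 (EAAT4), is a glutamate transporter known from Purkinje cells of the cerebellum. It stood at -0.21 and -0.53 at 4 h and at -1.23 and -1.04 at 24 h, with 24 h spots between -1.35 and -0.997. Its 24 h call was lost under quantile and scale normalization. The arginine carriers were not called. Slc7a1 (CAT1), the constitutive carrier of endothelium, stood at -0.13 and 0.11 at 4 h and at -1.47 and -0.26 at 24 h. Slc7a2 (CAT2), which macrophages induce together with nitric oxide synthase, stood at -0.99 and -0.13 at 4 h and at -0.79 and 0.81 at 24 h. Neither showed a shift of 2-fold on both arrays. The taurine carrier Slc6a6 at -0.24 ± 0.36 and -0.17 ± 0.67, and the serotonin carrier Slc6a4 at -0.06 ± 0.96 and 0.18 ± 0.37, lay near 0 at both times.

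None of the 7 hexose carriers was called at 4 h or 24 h, where 3.25% and 7.0% of all genes were called. Slc2a1 (GLUT1), the main glucose carrier of endothelium, stood at 2.997 on array 1 and 0.21 on array 2 at 4 h and at -0.68 and -0.41 at 24 h. The 4 h mean, 1.60 ± 1.97, therefore rested on array 1, while at 24 h both arrays were below 0 by less than 2-fold. On array 1 of 4 h its spots read 0.33 and 5.66, so 1 spot carried that array's value. On array 2 of 4 h they read 0.10 and 0.32. Slc2a4 (GLUT4), the insulin-responsive carrier of muscle and fat, stood at -0.49 and -0.12 at 4 h and at -1.08 and -0.44 at 24 h. Slc2a9, a urate carrier, had the lowest mean of the group at both times, -1.89 ± 1.84 and -1.27 ± 2.08. Its arrays disagreed widely, at -3.19 and -0.58 at 4 h and at 0.20 and -2.74 at 24 h. The liver carrier Slc2a2 stood at 0.06 on both arrays of 4 h and at -0.35 ± 0.18 at 24 h, the neuronal carrier Slc2a3 at 0.03 ± 0.17 and -0.18 ± 0.10, the fructose carrier Slc2a5 at -0.03 ± 0.67 and 0.24 ± 0.06, and the intracellular carrier Slc2a8 at 0.50 ± 1.77 and -0.04 ± 0.57. At 24 h, 4 of the 7 were below 0 on both arrays and 1 above. In a list of 16 genes of glucose use, of which 14 were measured, 3 were higher and 0 lower at 4 h, and 5 were higher and 0 lower at 24 h. Hif1a, which encodes part of a hypoxia-responsive transcription factor that is known to act on Slc2a1, was among them at both times, at 3.73 and 3.76 and at 2.44 and 2.30.

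Of the 25 mitochondrial carriers, 0 were called at 4 h and 1 (4.0%), Slc25a4, was higher at 24 h. Of all genes, 3.25% were called at 4 h and 3.48% were higher at 24 h. Slc25a4 (ANT1) is the ADP/ATP carrier of heart and skeletal muscle. It stood at -0.12 and -1.35 at 4 h and at 2.91 and 1.92 at 24 h, a 24 h mean of 2.41 ± 0.70, or 5.33-fold higher. All of its 24 h spots lay between 1.90 and 3.15. The isoform Slc25a5 (ANT2), more widely expressed, was above 0 on all arrays, at 0.85 and 0.88 at 4 h and at 0.80 and 1.25 at 24 h, and was not called. Of 12 cardiomyocyte markers, 0 were higher at 24 h and 1, Ryr2, was lower, and their means ran from -1.40 to 0.68 with a median of -0.094. The part of cardiomyocyte RNA in the value of Slc25a4 was not tested.

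The other extremes of the mitochondrial group rested on arrays far apart. Slc25a46, a protein of the outer mitochondrial membrane, had the highest 4 h mean, 2.81 ± 5.22, from 6.50 on array 1 and -0.88 on array 2. Slc25a39, which imports glutathione, had the lowest 24 h mean, -1.47 ± 2.66, from 0.41 and -3.35. The ornithine carrier Slc25a2 was below 0 on all arrays, at -2.08 and -0.67 at 4 h and at -0.91 and -1.63 at 24 h, without a call. Slc25a20, the carnitine-acylcarnitine carrier needed for fatty acid oxidation, lay near 0 at -0.16 ± 0.12 and 0.07 ± 0.63.

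Among the 130 other carriers, 2 were higher and 2 lower at 4 h, and 1 was higher and 8 were lower at 24 h. Calls thus covered 3.08% and 6.92% of the group, against 3.25% and 7.0% of all genes. Of the organic ion carriers of the Slco and Slc22 families, 3 were called at 4 h. These families have 9 and 10 measured members, were put together after their calls were seen, and stand beside 3.25% of all genes called. Slco1c1 (OATP1C1), a thyroxine carrier best known from brain capillaries of rodents, stood at -2.65 and -2.12 at 4 h, a mean of -2.39 ± 0.37, or 5.23-fold lower, with all spots between -2.78 and -2.11. At 24 h its arrays stood at -0.79 and 5.14. The spots within each array were close to each other, from -1.23 to -0.36 and from 5.04 to 5.24, so the arrays and not the spots disagreed, and no 24 h call was made. Slco3a1 (OATP3A1), a widely expressed organic anion carrier, was higher at 4 h, at 1.84 and 1.06 with spots from 0.87 to 2.29, and stood at 0.72 and -0.71 at 24 h. Slc22a4 (OCTN1), the ergothioneine carrier, was lower at 4 h, at -1.46 and -1.15 with spots from -2.06 to -0.60, and stood at -0.50 and 1.03 at 24 h. The carnitine carrier Slc22a5 (OCTN2) was not called. Its arrays at 4 h were 2-fold in opposite directions, at -3.34 and 1.76, and at 24 h they stood at 0.82 and 3.10. Slco1a4, a carrier of the blood-brain barrier, lay near 0 on all arrays, from -0.06 to 0.34.

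Slc15a3 (PHT2), a proton-coupled carrier of histidine and peptides in endolysosomes, had the highest 4 h mean of all members. It stood at 4.02 and 2.38 at 4 h, a mean of 3.20 ± 1.16, or 9.16-fold higher, and at 0.25 and 0.78 at 24 h. On array 2 its spots read 2.16 and 2.59, close to each other. On array 1 they read 0.16 and 7.87, so 1 spot carried that array's value. Slc15a3 is known from macrophages and other immune cells. Of 7 macrophage markers measured, 0 were called at 4 h, with means from -0.23 to 0.38, and of 9 neutrophil markers 0 were called at 4 h, with means from -0.36 to 0.46. Slc11a1 (NRAMP1), the phagosomal metal carrier of macrophages, stood at -0.57 and 0.30 at 4 h and at -1.19 and 0.18 at 24 h.

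Slc22a17 is known as a receptor for lipocalin-2, and it was lower at 24 h. It stood at -0.14 and 0.21 at 4 h and at -1.98 and -1.12 at 24 h, a mean of -1.55 ± 0.61, or 2.93-fold lower. Its spots on each 24 h array were nearly equal, from -1.99 to -1.97 and from -1.21 to -1.03. Its ligand Lcn2, which sequesters bacterial siderophores, was higher at both times, at 5.09 and 3.82 at 4 h and at 5.41 and 4.93 at 24 h. Slc46a1 (PCFT), the proton-coupled folate carrier, was also lower at 24 h with close spots. It stood at -0.36 and -0.33 at 4 h and at -1.85 and -1.27 at 24 h, a mean of -1.56 ± 0.41, or 2.96-fold lower. Scale normalization ended the 24 h call of Slc22a17 and kept that of Slc46a1.

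Of the zinc carriers, Slc39a7 (ZIP7), which releases zinc from the endoplasmic reticulum and Golgi, was higher at 24 h. It stood at -0.04 and -1.28 at 4 h and at 2.00 and 1.06 at 24 h, a mean of 1.53 ± 0.67, with its lowest spot at 1.0001 and its highest at 2.12. The call was lost under quantile or scale normalization and when spots with a ratio of exactly 1 were left out of all genes. None of its own 24 h spots had such a ratio. Slc30a3 (ZnT3), known for loading zinc into synaptic vesicles, was lower at 24 h, at -1.60 and -1.86, with spots from -3.52 to 0.67 over 2 oligonucleotides. At 4 h it stood at 0.41 and 0.14. The zinc exporter Slc30a1, a known target of the zinc sensor MTF1, lay above 0 on all arrays without a call, at 0.39 ± 0.39 and 0.17 ± 0.15. The importer Slc39a8 lay below 0, at -0.32 ± 0.14 and -0.27 ± 0.27. The iron carriers were not called either. Ferroportin (Slc40a1), the cellular iron exporter, stood at -0.76 and -0.38 at 4 h and at 0.51 and 0.23 at 24 h, and Slc11a2 (DMT1) at 0.11 ± 0.24 and -0.07 ± 1.47. In a list of 13 metal-handling genes, of which 10 were measured, Mt2, Cp and Lcn2 were higher at both times and none was lower.

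The monocarboxylate family Slc16 held 3 of the 11 lower calls of 24 h. It has 8 measured members and was singled out after its values were seen, and 3.52% of all genes were called lower at 24 h. Slc16a10 (TAT1), which carries aromatic amino acids and thyroid hormones, stood at 0.29 and -0.29 at 4 h and at -2.62 and -2.02 at 24 h, a mean of -2.32 ± 0.42. On each 24 h array 1 spot was far below 0, at -5.25 and -3.94, and the other was at 0.02 and -0.09. The spot of Slc16a10 at 0.02 had a deposited ratio of exactly 1. Without spots at such a ratio, the 24 h mean of Slc16a10 was -3.65. Slc16a11 stood at -1.14 and -1.05 and Slc16a14 at -1.49 and -1.08 at 24 h. Their 24 h spots ran from -1.35 to -0.90 and from -2.23 to -0.75, and both calls were lost under quantile or scale normalization. The lactate carriers of the family were not called. Slc16a1 (MCT1) stood at -0.10 and 0.47 at 4 h and at -0.53 and 0.48 at 24 h. Slc16a3 (MCT4), the lactate exporter of glycolytic cells, stood at -2.63 and -0.66 at 4 h and at -0.44 and -0.07 at 24 h. On array 1 of 4 h its spots read -5.72 and 0.47.

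Another 3 members were lower at 24 h. Slc10a1 (NTCP), the bile acid carrier of liver, stood at -2.04 and -1.03, and 1 of its spots read -5.00 while another read -0.22, and the call was lost under quantile or scale normalization. Slc34a1, the sodium-phosphate carrier of the kidney tubule, stood at -1.0035 and -1.04, with spots from -1.17 to -0.83. Its call was lost under quantile or scale normalization and without spots at a ratio of exactly 1. None of the 24 h spots of Slc34a1 itself had such a ratio. Slc6a19os, the antisense transcript, stood at -2.19 and -1.24, and its spots ran from -5.09 to 0.71. Of 7 kidney or liver epithelium markers, 0 were called at 4 h or 24 h, and their means ran from -1.24 to 0.41 and from -0.87 to 0.39.

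Several carriers with known roles in endothelium or heart were measured without a call. The adenosine carrier Slc29a1 (ENT1) stood at -1.74 and -0.67 at 4 h and at 0.02 and -1.05 at 24 h. Its value of 0.02 came from 2 spots with a deposited ratio of exactly 1. The phosphate carrier Slc20a1 (PiT1) was above 0 on all arrays, at 1.32 and 0.30 at 4 h and at 1.87 and 0.48 at 24 h. The sodium-potassium-chloride cotransporter Slc12a2 (NKCC1) stood at 0.40 ± 0.01 and 0.18 ± 0.25, and the sodium-calcium exchanger Slc8a1 (NCX1) at -0.42 ± 0.27 and 0.15 ± 0.53. These cover the range from closely agreeing arrays to arrays on opposite sides of 0. Of the fatty acid transport proteins, Slc27a1 at 0.06 ± 0.36 and 0.11 ± 0.40 and Slc27a3 at -0.17 ± 0.06 and -0.32 ± 0.17 lay near 0, and Slc27a4 is described below. Slc4a1 (band 3), the anion exchanger of erythrocytes, stood at -0.14 ± 0.17 and 0.71 ± 0.61, and of 7 erythrocyte markers 1 was higher and 1 lower at 24 h. Slc38a2, Slco2a1 and Slc39a14 were not analysed here.

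The times were then compared. A gene was counted as separated where both arrays of a time lay above both of the other with means no less than 1 log2 unit apart. By this measure 34 of the 200 members (17.0%) were separated, 10 higher and 24 lower at 24 h than at 4 h, against 19.8% of all genes, 9.43% higher and 10.3% lower. Each array was also set against the one of the same dye orientation at the other time, and both differences had to reach 1 log2 unit. By that rule 19 of the 200 members were separated, beside 1191 of all 11138 genes. Of the 19 members, 16 were among the 34. With the arrays as separate samples, limma gave 0 members at an adjusted p under 0.05 for this difference. It gave 11 members at an unadjusted p under 0.05, beside 638 of all 11138 genes.

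Among the separated members, the largest differences of 24 h minus 4 h above 0 were those of Slco1c1 at 4.56, Slc1a4 at 3.73, Slc25a4 at 3.15 and Slc39a7 at 2.20 log2 units. For Slc1a4 the same-dye differences were 3.38 and 4.08, and for Slc25a4 they were 3.03 and 3.27, so both pairs gave a similar size. For Slco1c1 they were 1.86 and 7.26. Those farthest below 0 were Slc15a3 at -2.68 and Slc16a10 at -2.32. The difference of Slc2a1, -2.15, rested on array 1, and there on 1 spot of 4 h, with same-dye differences of -3.68 and -0.62.

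Among members called at neither time, 5 were separated with same-dye differences of at least 1 log2 unit, and of these all but Slc27a4 were chosen after their values were seen. The matching count over all genes was not made, so the 5 have no background. Of all genes, called or not, 19.8% were separated, and the same-dye rule by itself held for 1191 of 11138. Slc27a4 (FATP4), a fatty acid transport protein, went from -0.59 and -0.68 at 4 h to 0.90 and 0.40 at 24 h. Slc50a1, a sugar transporter of the SWEET family, went from -0.96 and -1.06 to 0.74 and 0.35. For both, all arrays of 4 h were below 0 and all arrays of 24 h above it. The potassium-chloride cotransporter Slc12a7 (KCC4) went from 0.72 and 0.62 to -0.62 and -1.20, and the glutamate carrier Slc1a1 (EAAT3) from 1.15 and 0.86 to 0.07 and -1.06. Slc37a4, the glucose-6-phosphate carrier of the endoplasmic reticulum, went from 2.05 and -0.28 to -0.63 and -1.74.

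**Figure D4:**
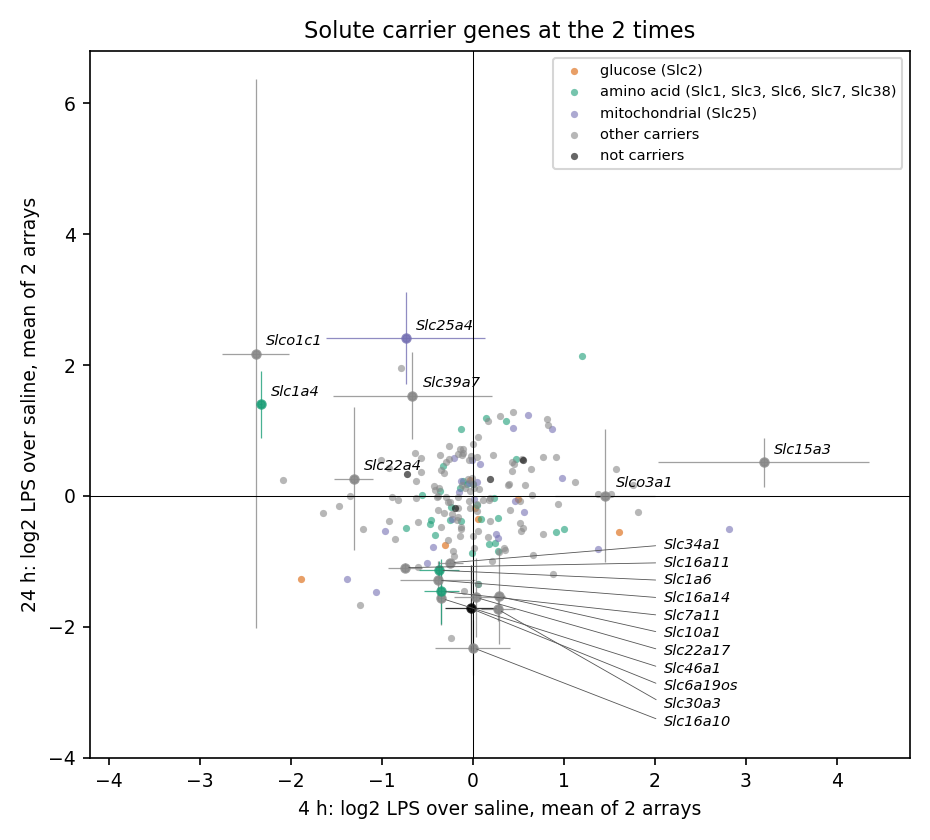
Each point is a solute carrier gene, with the mean log2 LPS over saline of 2 arrays at 4 h on the horizontal axis and at 24 h on the vertical axis, coloured by transport group; the 18 genes called at 4 h or 24 h are named and have bars of 1 SD of the 2 arrays. Slc1a4 lies at -2.33 and 1.40 with short bars, Slco1c1 has a 24 h bar of 4.20, and 11 called genes lie below -1 at 24 h.

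Other families of membrane transporters were counted in the same way. Of 33 ATP-binding cassette transporters, 0 were higher and 1 was lower at 4 h, and 2 were higher and 0 lower at 24 h, among them the efflux pump Abcg2 at 2.37 and 2.01. Of 22 P-type ATPase genes, 1 was higher and 1 lower at 4 h and 2 were higher and 0 lower at 24 h. Of 8 aquaporins, only Aqp5 was called, lower at 24 h. Differences between these families and the solute carriers were not tested. Among markers of cell types, 3 of 9 neutrophil genes were higher and 1 lower at 24 h, 2 of 8 fibroblast genes were higher and 0 lower, and 0 of 7 macrophage genes were called. Of 11 endothelial markers measured, with means from -1.89 to 1.29 at 4 h and from -0.77 to 3.91 at 24 h and medians of 0.0068 and 0.0433, Cldn5 was higher and Kdr and Eng were lower at 4 h, and Kdr and Eng were higher at 24 h. Kdr stood at -1.36 and -2.42 at 4 h and at 2.55 and 1.87 at 24 h, and Eng at -1.27 and -2.46 and at 4.51 and 3.31. The part of these markers in the values of the carriers was not tested.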

How the data were processed

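Long-oligonucleotide arrays with 2 colours were analysed, 2 dye-reversed arrays at each of 2 times. The deposited table holds log2 ratios for 32448 spots per array. The sources used here give neither its direction nor the background correction, dye normalization or spot filters that the authors used. A ratio of exactly 1 was listed for 10.2% to 13.4% of spots, depending on the array. Ratios of arrays with LPS RNA in Cy3 were turned. Spots of an oligonucleotide, then oligonucleotides of a gene, were averaged, and the median gene of every array was set to 0. Names came from the platform annotation (24344 spots with 1 symbol), and all 200 members matched a RefSeq gene identifier. A further 2 spots named a carrier with a second gene and were left out. No test was made in the main analysis. limma 3.58.1 in R 4.3.3 was run as an alternative on all genes, and the calls and limma were tested on simulated data. Upstream sequences are from RefSeq (GRCm38.p6). The text names all called members, all hexose carriers, the highest and lowest member by mean of each of the 4 carrier groups at each time, and the 30 measured carriers of a written list. A further 4 were named after their values were seen. Members and lists were chosen with earlier results of these data known. The number of arrays limits the precision.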

Additional observations from a re-analysis of the deposited data

Results flagged for a closer look

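Of the 18 members called at 4 h or 24 h, 5 had all arrays of 4 h on the opposite side of 0 from all arrays of 24 h, as had 210 of the 1066 genes called in all. The difference of 24 h minus 4 h was 3.73 log2 units for Slc1a4, 3.15 for Slc25a4, 2.20 for Slc39a7, -1.83 for Slc10a1 and -2.0045 for Slc30a3. These differences were not tested. Over all members, 23 of 200 (11.5%) had the times on opposite sides, against 12.3% of all genes. Of the 5 called members, Slc1a4 was also called at both times, and the others were within 2-fold of 0 on at least 1 array of 4 h.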

How the results depend on the processing

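Counts of called members depended on the scaling. The SD over members was 1.27 and 0.60 on the arrays of 4 h and 1.0016 and 1.08 on those of 24 h. At 4 h, quantile normalization called 11 members and scale normalization 12 in place of 5, and each kept all 5. Over all 11138 genes they called 561 and 591 at 4 h in place of 362. At 24 h they called 6 and 5 members in place of 14, and 525 and 470 of all 11138 genes in place of 780. Over all genes, quantile normalization called 328 higher and 233 lower at 4 h in place of 251 and 111. With every spot at least 2-fold, 2 members were called at 4 h and 4 at 24 h. A threshold of 1.5-fold called 20 and 34 members, and 3-fold called 3 and 3. Over all genes, 1.5-fold called 941 and 1808, and 3-fold called 126 and 235. Without turning array 2, 1 and 6 were called, and limma called 0 and 0. Between the times, 34 members were separated, 19 with the replicate block of same-dye arrays and 0 by limma. On a single array, 19 to 50 members were 2-fold at 4 h and 56 on either array at 24 h, and 52 to 74 differed between the times. Over all 11138 genes, these counts were 1414 to 2317 at 4 h, 3239 to 3408 at 24 h and 3873 to 4270 between the times. The amino acid median at 4 h, -0.058, became -0.0145 with quantile and -0.0013 with scale normalization. On single arrays, the medians at 4 h ran from -0.121 to 0.0589 for glucose, -0.048 to -0.0097 for amino acid, -0.045 to 0.0 for mitochondrial and -0.147 to -0.0101 for other carriers. At 24 h, they ran from -0.224 to -0.0394 for amino acid and from -0.0117 to 0.0824 for mitochondrial carriers. The causes were not tested. No called member changed its direction under quantile or scale normalization, the median of spots or without ratios of exactly 1. Signal over background could not be examined without intensities.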
